A study of Mus musculus with 12 samples.

Results

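Interferon-γ (IFN-γ), a cytokine made by activated T cells and natural killer cells, was left on mouse lymphoma cells for 24 h or was neutralised after 6 h, and messenger RNA was compared at harvest. The members are the 3 libraries of the 24 h exposure and the 3 libraries of the 6 h exposure, 6 of the 12 libraries in the series, taken by the names of the count columns. All 14299 genes that passed a filter on low counts were tested, of 53379 in the table. The cells were an Eµ-myc B cell lymphoma of C57BL/6 mice, in which an immunoglobulin heavy chain enhancer drives Myc, so all groups carry that transgene. The 24 h group received IFN-γ at 5 ng/mL for 24 h. The 6 h group received the same dose, and a neutralising antibody (clone XMG1.2, 50 µg/mL) stopped the stimulation at 6 h. The 1 h group was blocked at 1 h, and an unstimulated group had no cytokine, with 3 libraries each. Harvest was at 24 h, so 6 h cells had a long interval without active cytokine before their RNA was taken. The labels do not say whether 24 h or unstimulated cells were given antibody, so length of exposure and presence of antibody cannot be told apart. They also do not say whether the 3 libraries of a group came from separate cultures, and the p-values then reflect spread among these samples alone, which may be technical.

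IFN-γ binds a receptor made of IFNGR1 and IFNGR2 chains and activates the kinases JAK1 and JAK2, which phosphorylate transcription factors of the STAT family. STAT dimers bind gamma-activated sites in promoters and switch on a first set of genes, among them the transcription factor IRF1, which with other IRF proteins acts on a further set through interferon-stimulated response elements. In B cells and many tumour cells the pathway is known for raising antigen presentation, the checkpoint ligand PD-L1 and GTPases that attack intracellular pathogens, and SOCS1 limits it by blocking JAK activity.

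Library totals were 58267227, 55520205 and 67096610 counts in 24 h libraries, against 56275489, 58158648 and 53218694 counts in 6 h libraries. The first principal component of the 6 libraries held 55.65% of the variance and separated 24 h from 6 h, and the second (14.12%) set IFNg_6h replicate 3 apart. Markers of B cells summed to 2600 to 2610 CPM (counts scaled by library size) in 24 h libraries and 2700 to 2820 CPM in 6 h libraries. The 12 myeloid markers summed to 44.3 to 49.3 CPM against 13.6 to 14.1 CPM, and Mpeg1 alone averaged 40.7 CPM after 24 h and 6.85 CPM after 6 h. Cd68 (4.28 against 4.44 CPM), Itgam (1.27 against 1.75 CPM) and Fcgr3 (0.908 against 0.417 CPM) were also counted in all 12 libraries. S100a8 and S100a9 had 0 counts in all 12 libraries and Lyz2 at most 6. T and NK markers summed to 0.758 to 1.32 CPM against 0.692 to 1.37 CPM. Most of it was Cd3g (0.93 against 0.824 CPM), which was counted in every library. Klrb1c had at most 14 counts in a library, Cd3d 10, Trac 6 and Cd3e 4. Cd4, Cd8a, Ncr1, Nkg7 and Gzmb were at 0. Plasma cell markers summed to 342 to 359 CPM against 578 to 614 CPM, most of it Irf4, while Xbp1 (27.3 against 18.1 CPM), Prdm1 (1.73 against 1.31 CPM) and Sdc1 (13.3 against 12.6 CPM) averaged higher and Jchain had at most 9 counts. Fibroblast and endothelial markers summed to 90.1 to 93.8 CPM against 66.4 to 71.7 CPM, most of it Pecam1, with Col1a1 at most 2 counts. In bulk RNA, fewer cells of a type and less RNA per cell cannot be told apart.

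The promoters of 6 genes are shown. They are the chosen pathway genes with the largest rises among those whose promoter window held a motif searched for below. A match in each was therefore fixed by the choice, and genes without a match were passed over. The genes are 3 GTPases (Gbp2, Igtp, Irgm1), the transcription factors Irf1 and Bcl6, and the feedback inhibitor Socs1, all higher after 24 h. Each promoter runs from 150 bases before to 50 bases after the RefSeq start, on GRCm38.p6 and in the direction of the gene. They lie at chr3:142620513-142620712 (Gbp2, plus strand), chr11:58199406-58199605 (Igtp, plus), chr11:48871371-48871570 (Irgm1, minus), chr11:53769864-53770063 (Irf1, plus), chr16:10785487-10785686 (Socs1, minus) and chr16:23988803-23989002 (Bcl6, minus). Capitals mark matches to TTCNNNGAA, the core of a gamma-activated site, or to an ISRE core, the paired GAAA of an interferon-stimulated response element with 2 bases of any kind between the copies, each searched on both strands.
Gbp2: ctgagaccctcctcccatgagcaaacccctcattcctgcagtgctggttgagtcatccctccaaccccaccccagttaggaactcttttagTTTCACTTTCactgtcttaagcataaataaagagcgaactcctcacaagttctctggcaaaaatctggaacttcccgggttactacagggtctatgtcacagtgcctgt
Igtp: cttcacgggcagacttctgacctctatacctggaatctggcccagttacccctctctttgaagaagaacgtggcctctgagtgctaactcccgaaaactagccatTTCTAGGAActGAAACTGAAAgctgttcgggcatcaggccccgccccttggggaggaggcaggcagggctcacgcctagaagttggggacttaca
Irgm1: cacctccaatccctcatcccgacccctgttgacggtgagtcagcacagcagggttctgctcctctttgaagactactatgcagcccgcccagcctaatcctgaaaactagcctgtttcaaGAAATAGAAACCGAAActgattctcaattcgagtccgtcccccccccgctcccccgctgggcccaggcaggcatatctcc
Irf1: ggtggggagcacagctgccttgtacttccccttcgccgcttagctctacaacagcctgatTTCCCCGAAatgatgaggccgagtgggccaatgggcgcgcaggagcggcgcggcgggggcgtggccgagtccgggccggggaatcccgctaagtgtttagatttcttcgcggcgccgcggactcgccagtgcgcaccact
Socs1: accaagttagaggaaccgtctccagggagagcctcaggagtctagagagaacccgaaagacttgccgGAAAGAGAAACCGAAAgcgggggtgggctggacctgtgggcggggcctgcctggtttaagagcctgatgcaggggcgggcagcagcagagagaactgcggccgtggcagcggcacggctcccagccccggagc
Bcl6: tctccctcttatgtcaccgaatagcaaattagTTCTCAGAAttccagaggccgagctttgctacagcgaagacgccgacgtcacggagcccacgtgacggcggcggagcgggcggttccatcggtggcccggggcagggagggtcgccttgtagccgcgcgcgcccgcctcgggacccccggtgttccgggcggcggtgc
The Irf1 window held TTCNNNGAA at -90 to -82 from the start and the Bcl6 window held it at -118 to -110. Igtp held TTCNNNGAA at -45 to -37 and the ISRE core at -34 to -25. Irgm1 and Socs1 each had a pair of ISRE core matches that overlap, and Gbp2 had 1 ISRE core match on the reverse strand at -59 to -50. In windows of 300 bases, TTCNNNGAA occurred in 19.5% of 215 promoters of genes called and at least 2-fold higher after 24 h, in 6.67% of 60 promoters of genes at least 2-fold lower, in 6.61% of 11996 promoters of the tested genes and in 8.3% of all 32851 in the RefSeq table. The ISRE core occurred in 21.4%, 0.0%, 3.03% and 3.44% of the same sets. A gene can have several promoters here: the 215 came from 173 of the 257 genes, and the 60 from 40 of 79. These are matches of letters, and binding was not measured. Of the 25 chosen pathway genes 19 had a promoter in the table, and 8 of those held neither motif in that window, among them Cd274, Tap1, Psmb9, H2-K1 and H2-D1.

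Exposure for the whole 24 h left 1275 genes higher (8.92% of the genes tested) and 1091 lower (7.63%) than 6 h exposure followed by a block, at a Benjamini-Hochberg adjusted p under 0.05 in edgeR's quasi-likelihood test. These shares of all genes tested are the background for each count of list members below. The rises were larger than the falls. A change of at least 2-fold was seen for 257 genes that were higher (1.8%) and 79 that were lower (0.552%), and 109 against 19 genes passed 4-fold. Among genes called higher 29 were at least 64-fold up. The median called rise was 1.29-fold, the median called fall 1.20-fold, and the median log2 fold change over all genes was 0.00. Without IFNg_6h replicate 3, which stood apart, 1552 genes were higher and 1246 lower. The groups did not overlap for 2231 genes in the direction of a rise (15.6%) and for 2101 in the direction of a fall (14.7%). The 6 h libraries were close to unstimulated cells, from which 167 genes were higher (1.17%) and 61 lower (0.427%), while 24 h libraries had 1473 higher (10.3%) and 1194 lower (8.35%). These comparisons share libraries, so their values are given side by side and not as support for one another.

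**Figure D1:**
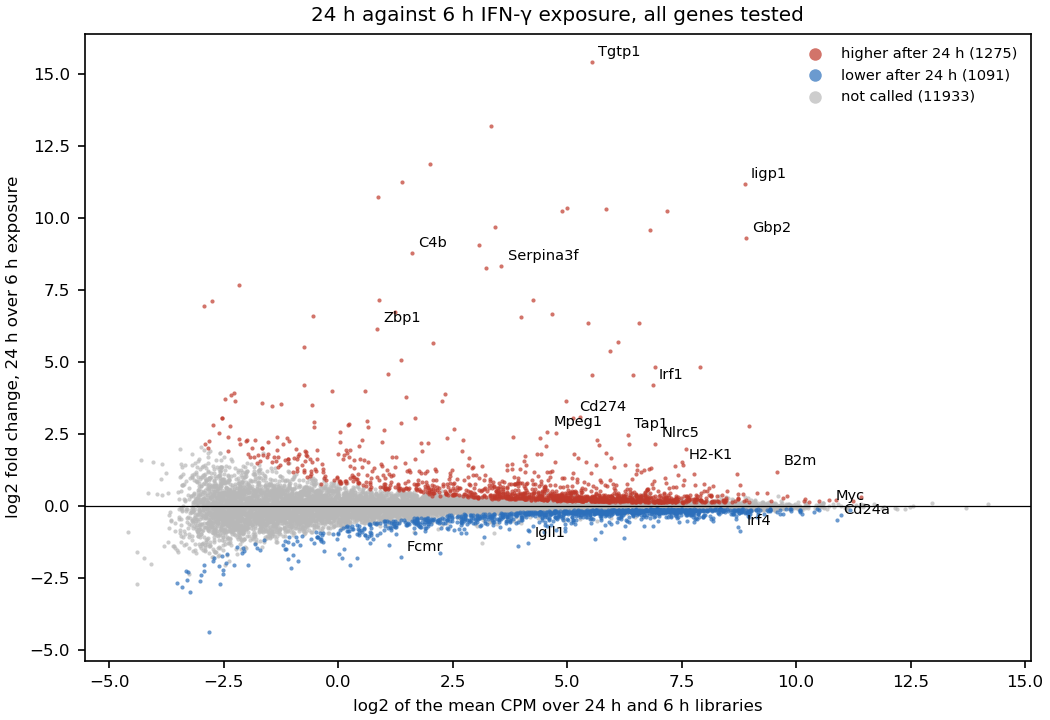
The log2 fold change of 24 h over 6 h exposure (vertical) against the log2 of the mean CPM over both groups (horizontal), 1 point for each of the 14299 genes tested. Red points are the 1275 genes called higher after 24 h, blue points the 1091 called lower, and grey points the rest, and the named interferon targets lie far above the band of small changes.

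Signalling from the receptor was unequally affected. Irf1, the transcription factor described above (ENSMUSG00000018899.16, at 53770014 to 53778374 of chromosome 11 on mm10), had 231, 215 and 218 CPM in 24 h libraries, against 11.4, 12.3 and 12.5 CPM in 6 h libraries. Every 24 h library was far above every 6 h library, and the log2 fold change was 4.19 ± 0.06 (SE; edgeR adjusted p = 2.37e-29). In 6 h cells Irf1 was 0.19 ± 0.06 above unstimulated cells, where it averaged 10.6 ± 0.245 CPM (SD, n = 3), and that difference was not called (edgeR adjusted p = 0.109). Among genes for receptor chains, JAKs and STATs, Stat3, which also carries interleukin signals, was higher (0.75 ± 0.05), as was Stat2, which acts in type I interferon signalling (0.44 ± 0.06). Stat5b was lower (-0.14 ± 0.04; edgeR adjusted p = 0.0177), and its call was lost without IFNg_6h replicate 1 (edgeR adjusted p = 0.106) and without any of 3 other libraries. The receptor chains were not called: Ifngr1 averaged 25.9 ± 1.14 CPM after 24 h and 28.0 ± 1.46 CPM after 6 h (SD, n = 3 each), and Ifngr2 25.7 ± 0.381 and 23.7 ± 0.200 CPM. Jak2 was at 32.9 ± 1.74 CPM after 24 h and 32.5 ± 0.743 CPM after 6 h.

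Interferon regulatory factors and partners were higher for 5 of the 9 that were tested (10 were listed) and lower for 1, with a median log2 fold change of 1.31. Irf9, the DNA-binding subunit of the complex ISGF3, averaged 37.4 ± 1.93 CPM after 24 h, against 8.95 ± 1.09 CPM after 6 h. Irf8, a factor of myeloid and B cell development, averaged 163 ± 2.62 CPM against 65.7 ± 4.18 CPM (1.31 ± 0.06). Batf2, a partner of IRF proteins, was rare, with 62 counts in the 24 h group against 4 in the 6 h group (ratio 14.4, 95% counting interval 3.66 to 124). Irf4 was the member that was lower, and it is described with the B cell genes.

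Among feedback inhibitors, Socs1 had 8.89, 8.42 and 9.28 CPM after 24 h, against 0.763, 0.757 and 0.618 CPM after 6 h. No 6 h library came near the 24 h level (3.63 ± 0.18). Of 9 tested feedback genes, of 10 in the list, 3 were called higher and 0 lower at a median of 0.08. Ptpn1, a phosphatase that acts on JAK2, was 0.27 ± 0.05 higher. Socs3 was 1.62 ± 0.44 higher from low levels, and its call was lost without IFNg_24h replicate 2 (edgeR adjusted p = 0.072), IFNg_6h replicate 1 (0.0658) or IFNg_6h replicate 2 (0.0562).

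**Figure D2:**
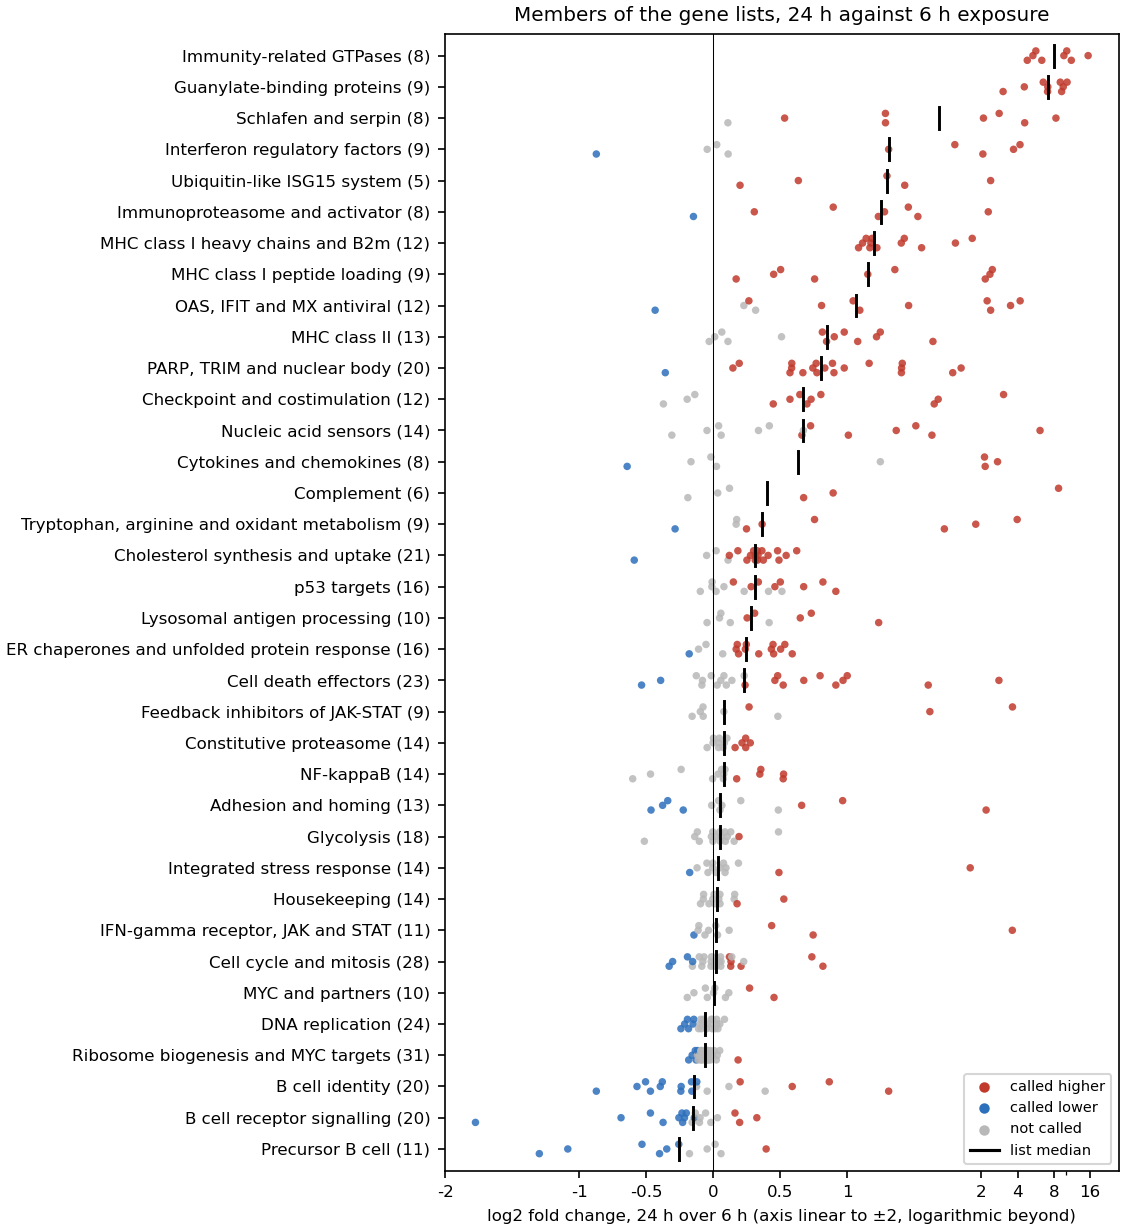
Log2 fold change of 24 h over 6 h exposure for each tested member of 36 gene lists, ordered by list median, with the number of tested members in brackets. The axis is linear to 2 on either side and logarithmic beyond. Red points were called higher, blue lower and grey neither, and black bars are list medians, with both GTPase families at the top and precursor B cell genes at the bottom.

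Interferon-inducible GTPases, which build on and disrupt the vacuoles of intracellular pathogens, had the largest changes. All 9 tested guanylate-binding proteins, of 11 in the list, were called higher, with a median log2 fold change of 7.13. All 8 tested immunity-related GTPases were called higher, with a median of 8.02. The other 4 of the 12 symbols in that list matched no gene in the count table, so they did not fail the filter. Both medians were the same with the member at 0 in 6 h libraries placed at its lower bound. Many of these genes passed the filter through the 24 h libraries, so the counts describe tested members and are not shares of the families. Gbp2 (ENSMUSG00000028270.12, chromosome 3), whose promoter is shown above, had 956, 975 and 955 CPM in 24 h libraries, against 1.61, 1.34 and 1.68 CPM in 6 h libraries. The groups were separated by more than the spread of either (9.28 ± 0.08; edgeR adjusted p = 1.58e-34). Its 6 h level was above unstimulated cells, which had 0.346 ± 0.127 CPM, by 2.12 ± 0.18 on the log2 scale (edgeR adjusted p = 9.17e-09). Iigp1 had 944, 945 and 924 CPM after 24 h, against 0.426, 0.550 and 0.225 CPM after 6 h. Igtp and Irgm1, a regulator of the other GTPases, started from higher levels. Irgm1 had 234, 239.8 and 231 CPM after 24 h, against 8.71, 7.62 and 8.69 CPM after 6 h, and its 6 h value was 0.08 ± 0.08 from the unstimulated one on the log2 scale. Igtp averaged 188 ± 3.87 CPM after 24 h and 2.29 ± 0.540 CPM after 6 h (6.36 ± 0.10). After 6 h, 3 of the 9 tested guanylate-binding proteins were called above unstimulated cells, beside 1.17% of all genes. So were 3 of the 8 tested immunity-related GTPases, among them Iigp1 (4.83 ± 0.78; edgeR adjusted p = 0.0042), which averaged 0.0113 CPM in unstimulated cells. Igtp was not among them (-0.37 ± 0.13; edgeR adjusted p = 0.194).

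Some members were nearly absent after the block. Tgtp1 had 16901 counts in the 24 h group and 0 in the 6 h group, which makes it at least 2620-fold higher when 6 counts per group are taken as the floor. Gbp6 was counted 3028 times against 5 times (ratio 562, 95% counting interval 160 to 2280). Intervals and floors cover counting error only. Gbp4 averaged 115 ± 0.839 CPM against 0.0896 ± 0.0318 CPM, Gbp7 224 ± 8.55 CPM against 0.289 ± 0.130 CPM, and Tgtp2 291 ± 8.62 CPM against 0.240 ± 0.0975 CPM. Tgtp1 and Tgtp2 are near-identical copies, as are several guanylate-binding proteins, so the split of reads between them is uncertain. Gimap4 and Gimap3, GTPases of lymphocytes, were also among the largest rises: Gimap4 averaged 18.7 ± 0.230 CPM against 0.0588 ± 0.0740 CPM, and Gimap3 had 669 counts against 4 (ratio 155, 95% counting interval 42.7 to 1290). C4b, complement component C4, was counted 1111 times against 2 (ratio 516, interval 92.3 to 20400). Serpina3f, a serine protease inhibitor with close paralogs, averaged 23.6 ± 1.28 CPM against 0.0709 ± 0.0346 CPM. Schlafen and serpin genes were higher in 7 of 8 tested and lower in 0 (median 1.69), and complement genes in 3 of 6 tested, of 14 listed (median 0.40).

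MHC class I heavy chains and B2m, which display peptides to CD8 T cells, were called higher in all 12 that were tested (16 were listed), with a median log2 fold change of 1.20, and 8 of the 12 were also above unstimulated cells in the 6 h libraries. H2-K1 (ENSMUSG00000061232.15, chromosome 17, 33996017 to 34000347) had 266, 259 and 276 CPM after 24 h, against 101, 98.6 and 104 CPM after 6 h. The groups did not overlap, and the 6 h libraries were in turn all above the unstimulated ones at 46.0, 42.1 and 47.2 CPM (1.16 ± 0.05; edgeR adjusted p = 1.01e-15). H2-D1 averaged 299 ± 17.9 CPM after 24 h and 138 ± 2.59 CPM after 6 h, with 76.2 ± 6.87 CPM in unstimulated cells. B2m, the light chain, had 1023, 1109 and 1085 CPM after 24 h, against 458, 442 and 515 CPM after 6 h, where unstimulated cells averaged 310.3 ± 22.8 CPM. H2-Q7 was rarer (1.89 ± 0.143 against 0.492 ± 0.152 CPM). H2-T23, which encodes the ligand Qa-1 for NKG2A, averaged 31.4 ± 0.880 CPM after 24 h and 8.98 ± 0.752 CPM after 6 h, and its 6 h level was not called against unstimulated cells (0.21 ± 0.09; edgeR adjusted p = 0.308). Reads of the H2 genes can be shared among near-identical copies, so single-gene values are uncertain.

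Genes that load class I molecules were called higher in 9 of 9 members, with a median of 1.15. Nlrc5, the transactivator of class I genes, had 198, 189.8 and 207 CPM after 24 h, against 44.8, 44.0 and 44.1 CPM after 6 h. Tap1, a subunit of the peptide transporter, averaged 137 ± 3.60 CPM against 24.6 ± 1.13 CPM (2.47 ± 0.06). Tapbpl, a peptide editor, averaged 35.7 ± 0.690 CPM against 6.95 ± 0.107 CPM. Nlrc5 and Tap1 were above unstimulated cells in the 6 h libraries (0.45 ± 0.05 and 0.61 ± 0.06), and Tapbpl did not (-0.02 ± 0.09). Immunoproteasome subunits and the proteasome activator were higher in 7 of 8 members and lower in 1 (median 1.26). Psmb9 averaged 83.3 ± 6.04 CPM against 17.1 ± 1.62 CPM, and Psmb10 averaged 63.3 ± 6.71 CPM against 21.97 ± 0.813 CPM. The lower one was the alternative activator Psme4 (-0.15 ± 0.04, chosen after its value was seen). Constitutive proteasome subunits were called higher in 5 of 14, against 8.92% of all genes. Those rises were 0.16 to 0.28 on the log2 scale, with a list median of 0.08.

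The level at harvest after the 6 h exposure, as a share of the 24 h rise, differed widely among these genes. It was computed as the 6 h level above unstimulated cells, divided by the 24 h level above unstimulated cells, for list members at least 2-fold above unstimulated cells at 24 h. No library was taken at the end of the 6 h exposure, so a rise that was lost and one that was never reached cannot be told apart. In H2-K1 the share was 25.2% ± 1.18 (SD over the 3 6 h libraries), H2-D1 27.8% ± 1.16, H2-Q4 24.1% ± 0.439 and B2m 21.2% ± 5.01. The median over 12 class I chains was 24.6%, with a range of 5.29% to 39.0%, and 9 of the 12 were at 20% or more. Tap1 was at 7.01% ± 0.941, Nlrc5 7.13% ± 0.281, Psmb9 6.75% ± 2.28 and Psmb8 7.63% ± 1.26. For Irf1 the share was 0.721% ± 0.275 and for Cd274 2.34% ± 0.208. The median was 0.125% over 9 guanylate-binding proteins, of which 8 were under 5%, and 0.0688% over 8 immunity-related GTPases, all under 5%. It was 1.49% over 5 interferon regulatory factors, 2.01% over 5 loading genes, -0.77% over 5 immunoproteasome genes and 9.80% over 7 class II genes. The share did not follow the size of the rise alone: H2-Q7 was 5.05 above unstimulated cells on the log2 scale at 24 h with a share of 23.8% ± 8.32, while Psmb10 was 1.51 above with a share of -0.775% ± 1.98. These shares are a description, and the lists were not tested against one another.

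**Figure D3:**
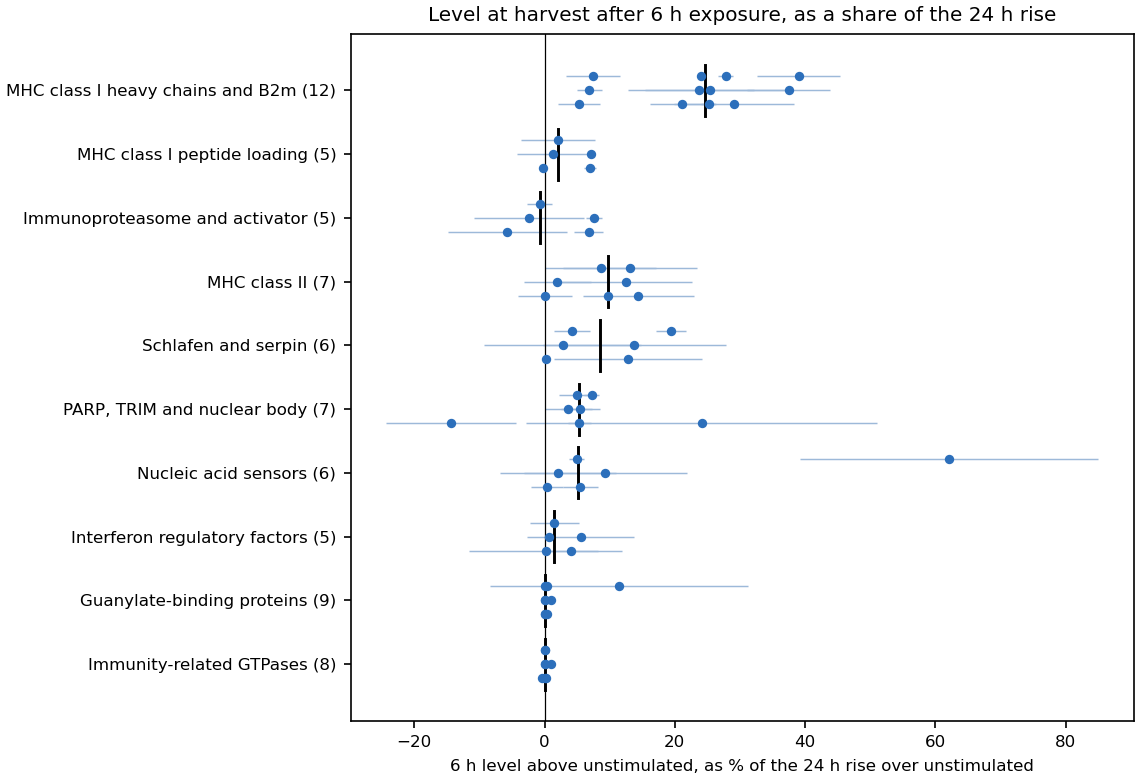
The level in 6 h libraries above unstimulated cells as a percentage of the level in 24 h libraries above unstimulated cells, for members of 10 lists at least 2-fold above unstimulated cells at 24 h. Points are means over the 3 6 h libraries with bars of 1 SD, and black bars are list medians, which lie at 24.6% for class I chains and at 0.125% for guanylate-binding proteins.

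MHC class II genes, which present to CD4 T cells, were called higher in 8 of 13 tested members and lower in 0, with a median of 0.85. Cd74, the invariant chain, averaged 234 ± 8.12 CPM after 24 h and 111 ± 5.16 CPM after 6 h, beside 111 ± 5.58 CPM in unstimulated cells. H2-Eb1 averaged 35.6 ± 1.04 CPM against 15.3 ± 0.139 CPM. The peptide exchange chaperone subunits H2-DMa and H2-DMb2 were 1.25 ± 0.18 and 1.64 ± 0.28 higher on the log2 scale. Ciita, the class II transactivator, had 14.9, 15.02 and 15.9 CPM after 24 h, against 8.99, 8.94 and 7.58 CPM after 6 h, without overlap. H2-Ob, a brake on peptide exchange (chosen after its value was seen), averaged 49.0 ± 0.450 CPM after 24 h and 48.6 ± 1.45 CPM after 6 h. Both were above the 41.1 ± 2.90 CPM of unstimulated cells (edgeR adjusted p = 0.00129 and 0.0193). In lysosomal processing 5 of 10 genes were called higher (median 0.28), led by the thiol reductase Ifi30 (143 ± 7.44 against 60.7 ± 2.19 CPM) and the cathepsins Ctsh (0.73 ± 0.09) and Ctss (0.65 ± 0.05).

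Checkpoint and costimulation genes were called higher for 9 of the 12 tested (17 were listed) and lower for 0 (median 0.67). Cd274, which encodes PD-L1, had 73.0, 62.1 and 52.0 CPM after 24 h, against 7.504, 7.32 and 7.54 CPM after 6 h. The 24 h libraries varied more among themselves than the 6 h libraries, but all lay well above them (3.06 ± 0.10). Cd86, a ligand of CD28 and CTLA-4, averaged 3.65 ± 0.639 CPM against 1.14 ± 0.323 CPM, and Tnfrsf14, a ligand of BTLA, 10.9 ± 1.05 CPM against 3.48 ± 0.316 CPM. Adhesion and homing genes went both ways, with 3 higher and 4 lower of 13 (2 lower without IFNg_24h replicate 3). Of all genes 8.92% were higher and 7.63% lower. The integrin chain Itgb7 (2.20 ± 0.20), the adhesion receptor Icam1 (0.97 ± 0.08) and the egress receptor S1pr1 (0.66 ± 0.08) were higher. Mpeg1, a pore-forming protein that B cells can also express, had 42.1, 38.3 and 41.6 CPM after 24 h, against 7.31, 7.02 and 6.21 CPM after 6 h.

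**Figure D4:**
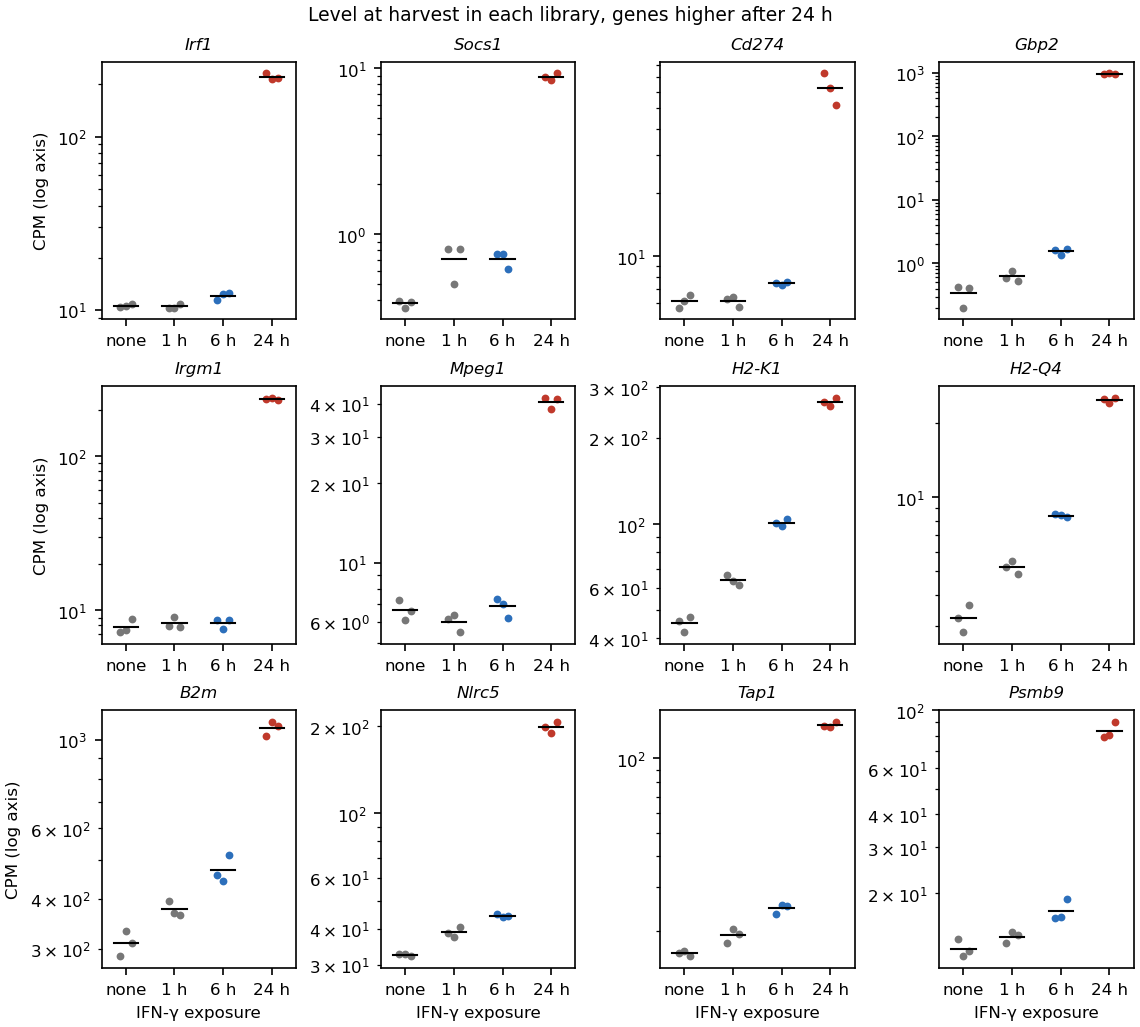
CPM on a logarithmic axis in each library of unstimulated cells and of cells exposed for 1 h, 6 h or 24 h, for 12 genes that were higher after 24 h. Each point is a library and each line a group mean; H2-K1, H2-Q4 and B2m step up at every exposure, while Irf1, Irgm1 and Mpeg1 are high in the 24 h libraries alone among these groups.

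Genes of the cell-intrinsic antiviral response were also higher after 24 h. In the PARP, TRIM and nuclear body list 19 of 20 were called higher and 1 lower (median 0.80), led by Parp14 (90.8 ± 2.94 against 25.2 ± 2.10 CPM), Parp12 (1.79 ± 0.37) and the ubiquitin ligase Dtx3l (112 ± 2.94 against 42.2 ± 2.06 CPM). Of 12 tested OAS, IFIT and MX genes, of 21 in the list, 9 were called higher and 1 lower (median 1.07), and 5 were higher among genes with at least 1 CPM in 3 libraries. Rsad2, which encodes viperin, averaged 1.24 ± 0.0905 CPM against 0.108 ± 0.0396 CPM. Nucleic acid sensors were higher in 7 of 14 tested (median 0.67), with Zbp1, a sensor of Z-form nucleic acid, at 3.55 ± 0.407 CPM against 0.0499 ± 0.0865 CPM and Ifi203 at 271 ± 11.5 CPM against 95.1 ± 2.19 CPM. The ISG15 system was higher in 5 of 5 tested, and in 3 without IFNg_24h replicate 3 or IFNg_6h replicate 2 (median 1.30), with the activating enzyme Uba7 at 18.8 ± 1.27 CPM against 6.99 ± 0.502 CPM. Isg15 itself was low (0.318 ± 0.199 against 0.0601 ± 0.0223 CPM), and its call was lost without IFNg_24h replicate 3 (edgeR adjusted p = 0.191), IFNg_6h replicate 1 (0.0668) or IFNg_6h replicate 2 (0.109). Ifi209, a DNA-binding protein of the same family as Ifi203 (chosen after its value was seen), averaged 163 ± 3.42 CPM after 24 h and 159 ± 6.96 CPM after 6 h. It was not called between them (edgeR adjusted p = 0.605) and was above the 128 ± 6.24 CPM of unstimulated cells in both.

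Of 23 tested cell death genes 11 were called higher, against 8.92% of all genes, and 2 lower, a share near the 7.63% of all genes (median 0.23), the number lower being 0 without IFNg_24h replicate 2 or IFNg_6h replicate 1. Xaf1, an antagonist of the inhibitor of apoptosis XIAP, averaged 2.04 ± 0.0925 CPM after 24 h and 0.288 ± 0.122 CPM after 6 h. Mlkl, the effector of necroptosis, averaged 1.93 ± 0.139 CPM against 0.633 ± 0.222 CPM, and Casp4, an inflammatory caspase, 1.66 ± 0.271 CPM against 0.832 ± 0.156 CPM. Among 8 tested cytokines and chemokines, of 21 in the list, 3 were higher and 1 lower. Csf1, the growth factor of macrophages, averaged 133 ± 3.02 CPM against 29.8 ± 2.23 CPM, and Tnfsf10, the death ligand TRAIL, 1.20 ± 0.166 CPM against 0.180 ± 0.0670 CPM. Cxcl10 was counted at 0.373 ± 0.121 CPM against 0.0823 ± 0.0389 CPM, and its call was kept without IFNg_24h replicate 3 but lost without any of the other 5 libraries (edgeR adjusted p of 0.0566 to 0.0973). The immunosuppressive cytokine Tgfb1 was lower, at 48.5 ± 2.24 CPM against 75.8 ± 3.86 CPM (-0.64 ± 0.05).

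Cholesterol synthesis and uptake genes were called higher in 17 of 21 tested members and lower in 1, with a median of 0.31, against 8.92% of all genes called higher. Fdps, farnesyl diphosphate synthase, averaged 7.501 ± 0.148 CPM after 24 h and 4.87 ± 0.392 CPM after 6 h. Unstimulated cells lay between them at 5.97 ± 0.702 CPM. Abca1, a cholesterol exporter, was the lower one (-0.59 ± 0.16), and its call was lost without IFNg_6h replicate 1 or IFNg_24h replicate 2 (edgeR adjusted p = 0.122 and 0.082). ER chaperones and genes of the unfolded protein response were higher in 12 of 16 and lower in 1 (median 0.24). The transcription factor Xbp1 averaged 27.3 ± 2.39 CPM against 18.1 ± 0.869 CPM, with 22.04 ± 3.15 CPM in unstimulated cells, and the disulfide isomerase Pdia3 424 ± 11.7 CPM against 299 ± 11.2 CPM, with 339 ± 3.17 CPM. For Pdia3 the 6 h libraries were below unstimulated cells (-0.18 ± 0.04; edgeR adjusted p = 0.0221). Wars, the tryptophanyl-tRNA synthetase, averaged 307 ± 4.90 CPM against 79.0 ± 0.930 CPM, and Ncf1, a subunit of the NADPH oxidase, 25.9 ± 2.02 CPM against 7.82 ± 0.348 CPM. Together with Acod1 they belong to a list of tryptophan, arginine and oxidant metabolism with 6 of 9 tested members higher and 1 lower (median 0.36). Acod1, which makes itaconate, averaged 1.71 ± 0.321 CPM against 0.107 ± 0.00463 CPM. Of 18 glycolysis genes 1 was called, Pfkp (0.19 ± 0.04), and among the housekeeping genes Ppia was called higher (0.18 ± 0.06). The call for Ppia was kept without IFNg_24h replicate 1 or IFNg_6h replicate 3 and lost without any of the other 4 (edgeR adjusted p up to 0.199).

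Genes lower after 24 h than after 6 h included regulators and surface proteins of B cells. Of 20 tested B cell identity genes 11 were called lower, against 7.63% of all genes, and 5 higher, with a median of -0.14. Irf4, a factor of B cell activation and plasma cells, had 316, 315 and 301 CPM after 24 h, against 576, 583 and 548 CPM after 6 h. The groups were well apart (-0.87 ± 0.04; edgeR adjusted p = 9.99e-16). Unstimulated cells had 455 ± 19.2 CPM and 1 h cells 555 ± 16.1 CPM, so both blocked groups lay above unstimulated cells and the 24 h group below. Ebf1, which specifies the B lineage, had 177, 173 and 176 CPM after 24 h, against 275, 265 and 240.3 CPM after 6 h. Its unstimulated level was 208 ± 10.7 CPM and its 1 h level 245 ± 8.37 CPM, the same arrangement. Relative to unstimulated cells, 24 h cells were 0.55 lower for Irf4 and 0.25 lower for Ebf1 on the log2 scale. Cd72, an inhibitory receptor, averaged 190.2 ± 6.13 CPM against 263 ± 11.1 CPM. Pax5, the factor that maintains B cell identity, averaged 493 ± 17.1 CPM after 24 h and 642 ± 67.3 CPM after 6 h. The surface glycoprotein Cd24a (chosen after its value was seen) averaged 1573 ± 51.0 CPM after 24 h and 2232 ± 21.0 CPM after 6 h. Bcl6, the germinal centre repressor whose promoter is shown above, went the other way at 1.70 ± 0.238 CPM against 0.366 ± 0.0948 CPM, as did the surface marker Ms4a1 (12.96 ± 1.27 against 7.10 ± 0.469 CPM).

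B cell receptor signalling genes were lower in 10 of 20 and higher in 3, or 1 without IFNg_24h replicate 3 (median -0.15). Of all genes 7.63% were lower and 8.92% higher. Fcmr, the receptor for IgM, had 1.03, 1.23 and 1.23 CPM after 24 h, against 3.81, 4.01 and 4.16 CPM after 6 h, without overlap (-1.77 ± 0.16). Pik3ap1, an adaptor for PI3 kinase, averaged 59.0 ± 3.94 CPM against 95.01 ± 9.57 CPM, also without overlap. The inhibitory receptor Cd22 was higher (316 ± 5.36 against 252 ± 2.01 CPM). Precursor B cell genes were lower for 6 of the 11 tested (14 were listed) and higher for 1 (median -0.26), beside the same shares. Igll1, part of the surrogate light chain, had 11.5, 9.71 and 9.71 CPM after 24 h, against 27.1, 25.03 and 23.8 CPM after 6 h. Its unstimulated level (26.9 ± 2.32 CPM) was close to the 6 h level. Vpreb1, the other surrogate light chain part, averaged 5.84 ± 0.692 CPM against 12.4 ± 0.554 CPM, and the interleukin-7 receptor Il7r 239 ± 6.01 CPM against 345 ± 12.4 CPM.

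**Figure D5:**
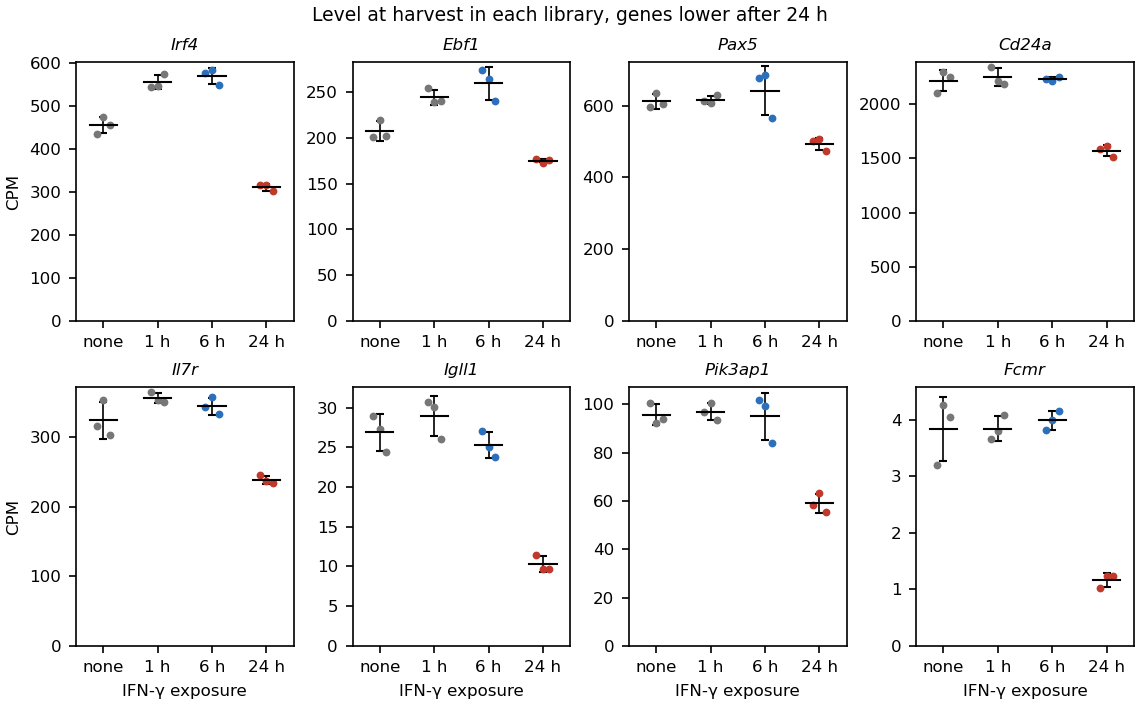
CPM from 0 in each library of unstimulated cells and of cells exposed for 1 h, 6 h or 24 h, for 8 B cell genes that were lower after 24 h. Points are libraries, and lines with bars are means ± SD (n = 3); the 24 h libraries lie below all the others, and for Irf4 and Ebf1 the 1 h and 6 h libraries lie above unstimulated cells.

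Outside these lists the largest falls by the rule for named genes were in genes of low level: Ksr2, a scaffold of MAP kinase signalling (-1.83 ± 0.25), Pdzd2 (-1.80 ± 0.25), the protease Prss23 (-1.67 ± 0.24), the small GTPase Rasd1 (-1.64 ± 0.17) and the ectoenzyme Enpp3 (-1.58 ± 0.33). Of these genes P2rx3, an ATP-gated channel, had the highest level. It was at 8.07, 8.71 and 8.30 CPM after 24 h, against 21.0, 22.7 and 22.2 CPM after 6 h (-1.39 ± 0.07). Sema6a, Pdlim3 and Best3 were lower by 1.22 to 1.36 on the log2 scale. The call for Zfp9 (-1.24 ± 0.34) was lost without IFNg_6h replicate 1 (edgeR adjusted p = 0.179), IFNg_24h replicate 1 (0.0581) or IFNg_24h replicate 3 (0.0654).

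Most proliferation genes changed by small amounts. Myc had 1622, 1675 and 1774 CPM after 24 h, against 1703, 1694 and 1665 CPM after 6 h, with overlapping groups (0.00 ± 0.04; edgeR adjusted p = 0.979). Of 10 tested Myc partners 2 were higher, the dimerisation partner Max (0.27 ± 0.05) and the antagonist Mxd1 (0.45 ± 0.07). DNA replication genes were lower in 6 of 24, or 3 without IFNg_24h replicate 1, and higher in 0 (median -0.06). Of all genes 7.63% were lower and 8.92% higher. The helicase subunit Mcm3 (435 ± 7.83 against 504 ± 12.7 CPM) was among the lower ones. Ribosome biogenesis genes were lower in 5 of 31 and higher in 1 (median -0.06), where 7.63% of all genes were lower and 8.92% higher, and the number lower was 0 without IFNg_24h replicate 1, IFNg_6h replicate 1 or IFNg_6h replicate 2. Of 28 tested cell cycle genes 6 were higher and 4 lower (median 0.02), beside 8.92% and 7.63% of all genes, with 3 higher without IFNg_24h replicate 2 or IFNg_6h replicate 1. The inhibitors Cdkn1b (83.2 ± 2.40 against 50.0 ± 3.18 CPM) and Cdkn1a (4.83 ± 0.148 against 2.73 ± 0.471 CPM) were the largest rises in that list, and the mitotic protein Cenpf (182 ± 9.05 against 229 ± 7.25 CPM) the largest fall. For Cenpf the unstimulated level was 189 ± 4.34 CPM, close to the 24 h level. Of 16 tested p53 targets 8 were higher and 0 lower (median 0.31), with Trp53inp1 at 355 ± 11.6 CPM against 222 ± 19.1 CPM. Of 14 NF-κB genes 5 were higher (median 0.08), or 3 without IFNg_24h replicate 2, IFNg_24h replicate 3 or IFNg_6h replicate 1. Both stand beside 8.92% of all genes higher. Several lists had a single call against their direction that rested on few libraries. The lower call was lost in the immunoproteasome list without IFNg_24h replicate 3 or IFNg_6h replicate 2, among ER chaperones without IFNg_6h replicate 1 or 2, and in the PARP list without IFNg_24h replicate 1 or 3 or IFNg_6h replicate 1 or 3. In the OAS list the lower call was kept without IFNg_6h replicate 3 alone, and the higher call among precursor genes was kept without IFNg_24h replicate 1 or IFNg_6h replicate 3 alone. In the stress response list 2 of 14 were higher and 1 lower (0 without IFNg_24h replicate 1 or IFNg_6h replicate 1 or 2), beside 8.92% and 7.63% of all genes. The largest rise there was in Atf3, a stress-induced transcription factor (5.65 ± 0.574 against 1.497 ± 0.377 CPM).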

How the data were processed

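Poly(A) RNA from 12 libraries was sequenced, and the authors deposited 1 table of whole-number counts per gene. The submitters' processing notes name featureCounts 1.4.3-p1, mm10, STAR 2.5.2a and Picard. No source used here gives the annotation release or strand setting. Between 69.9% and 73.9% of low counts (1 to 20) in each of these libraries were even, so a read pair may add 2 counts, and the floor for genes at 0 is 6 counts over a group. Where strand is not known, reads of antisense partners cannot be told apart. Gene positions came from a GENCODE annotation of GRCm38, promoters from RefSeq.

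Genes were filtered with filterByExpr and scaled with TMM in edgeR 4.0.16 (R 4.3.3). All 4 groups of 3 libraries were fitted together with robust quasi-likelihood F tests on 8 residual degrees of freedom, with no replicate block, and a gene was called at an adjusted p (Benjamini-Hochberg) under 0.05. CPM are scaled by TMM, standard errors were obtained by dividing log2 fold changes by the root of F, and CPM errors are SD with n = 3. The fit was tested on simulated data of 14299 genes. It recovered 59.1% of 66 log2 changes of 0.5, 77.6% of 67 changes of 1 and 95.5% of 67 changes of 2, with 8 false calls. In the data the median called rise was 0.37 and the median called fall -0.27, both smaller in size than any change simulated. Replicates differed by more than sampling noise (chi-square over its degrees of freedom 2.407 to 7.881, counts halved). The members of the comparison, the 41 gene lists and the tests were chosen with earlier results of these data known. Named genes were 25 chosen pathway genes, the 12 genes that rose most and the 12 that fell most among those called with at least 1 CPM in either group, groups that do not overlap and no predicted-gene symbol, and the 3 most changed called members of each list (all where 5 or fewer were called). Alternatives were DESeq2 1.42.0, RLE factors, 2 other filters, the 6 libraries alone, a replicate block, stricter thresholds, halved counts and each library left out. Some genes that the rule names are not reported here.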

Additional observations from a re-analysis of the deposited data

How the results depend on the processing

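The 2366 calls (1275 higher, 1091 lower) became 2564 (1361 and 1203) with DESeq2, 2370 (1272 and 1098) with RLE factors, 2499 (1452 and 1047) without the filter, 2313 (1249 and 1064) with the CPM filter, 2051 (1164 and 887) with the 6 libraries alone and 2418 (1293 and 1125) with halved counts. Stricter thresholds moved them: 1403 (845 and 558) passed an adjusted p under 0.01, and 336 (257 and 79) a log2 fold change of at least 1. With each library left out the calls ran from 1682 to 2798, with 1012 to 1552 higher and 647 to 1246 lower. The number lower was 647 without IFNg_6h replicate 1 and 709 without IFNg_6h replicate 2. Without IFNg_6h replicate 3, 2080 of the 2366 calls were among the 2798 (87.9% and 74.3% of each set). The replicate block gave 2480 calls (1349 and 1131), and of the named calls it ended 1, for Nfkbie (edgeR adjusted p = 0.0531). Deviations of same-numbered libraries correlated at 0.047, -0.003 and 0.035. Values this low, from 3 libraries a group, cannot tell whether a replicate number marks a shared culture or day. Of 142 named genes called, 20 lost the call in at least 1 fit that left out a library. Of the 146 named genes 2, neither of them called, changed sign: Jak2, with log2 fold changes of -0.013 (without IFNg_24h replicate 1) to 0.059, and Myc, with -0.034 (without IFNg_24h replicate 3) to 0.037. The cause of these shifts was not tested beyond the fewer libraries and stricter thresholds by which they were made. Genes below about 1 CPM rest on few read pairs, so a gene that was not called may still differ.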
